A study of Mus musculus with 12 samples.

Results

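The genes examined here are 10 members of the Bcl2 family, read in all 12 libraries out of 23309 genes listed in the deposited expression table. They were taken by name, and all 10 were found and passed the filter on low values. They are the anti-apoptotic genes *Bcl2*, *Bcl2l1* (Bcl-xL), *Mcl1*, *Bcl2a1a*, *Bcl2a1b* and *Bcl2a1d* (mouse A1), the effectors *Bax* and *Bak1*, and the BH3-only genes *Bcl2l11* (Bim) and *Bid*. The cultures were CD117 positive bone marrow cells from wild-type mice or from HMGN1-OE mice, which carry human HMGN1 as a transgene, and HMGN1 is a nucleosome-binding protein. Cells of both genotypes carried a retroviral ER-HoxB8 fusion and grew in interleukin 3, and estradiol (E2), which keeps the fusion active and the cells immature, was withdrawn for 0, 36 or 96 h. Each of the 6 combinations of genotype and time had 2 libraries, and the promoter of the transgene and the number of separate cultures or mice behind a group are not given in the labels.

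Mitochondrial apoptosis is set by the binding of these proteins to one another. Bax and Bak1 form the pores in the outer mitochondrial membrane that release cytochrome c. The anti-apoptotic members hold Bax and Bak1 and the BH3-only proteins in check, while BH3-only proteins such as Bim and cleaved Bid engage the others and set pore formation off. Mcl-1 is a short-lived protein required by myeloid progenitors and neutrophils, A1 is abundant in granulocytes, and Bim is a known brake on the lifespan of neutrophils. Transcript levels are given below, and protein was not measured in these libraries.

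Values are FPKM, fragments scaled to transcript length and library size, which the authors rescaled to ERCC synthetic RNAs added to RNA from a fixed number of cells. This deposited scale is meant to give RNA per cell, and its values are per length. Between the 2 libraries of a group, however, the median tested gene differed by 0.85 (log2) in wild-type cells at 0 h, by 0.89 in wild-type cells at 96 h and by 0.09 to 0.51 in the other groups, so each per-cell value carries a shift of its whole library. Because RNA came from whole cultures, fewer cells of a type and less RNA per cell cannot be told apart. The summed FPKM of a library ran from 680258 to 1442573 at 0 and 36 h and from 228955 to 559135 at 96 h, and the median change of the 11516 tested genes between 0 and 96 h was -1.75 in wild-type and -1.28 in HMGN1-OE cultures (log2, deposited scale). Each difference was therefore also computed after every library was centred on its median tested gene (centred scale), so that it reads as a change relative to the typical gene. Differences were tested on log2(FPKM + 1) with limma across all tested genes, a gene was called at a Benjamini-Hochberg adjusted p under 0.05, and errors after ± are standard errors of that fit unless SD is named. The smallest p that an exact permutation test of 2 libraries against 2 allows is 0.333. Markers set the 96 h libraries apart from the rest, since the summed FPKM of 9 maturation markers ran from 228 to 2959 at 0 and 36 h and from 65552 to 171398 at 96 h. These markers did not place 36 h after 0 h. Their sum was 595 and 228 FPKM at 36 h in HMGN1-OE cells against 1859 and 1160 at 0 h, and 5 of the 9 markers were called lower at 36 h on the deposited scale and none on the centred scale. The sum of 6 progenitor and primary granule markers was higher at 36 h in the same cells, 15491 and 12258 FPKM against 7745 and 5373, with 3 of the 6 called higher on the deposited scale and none on the centred scale. The first wild-type library at 36 h, in file order, stood apart from the second, with a summed level of 3 eosinophil markers of 52.5 FPKM against 7.45. Mouse *Hmgn1* was at 85.7 and 141 FPKM in wild-type and 200.6 and 97.6 FPKM in HMGN1-OE libraries at 0 h, or 6.09 and 5.30 against 9.42 and 6.72 times the median gene of the library. Whether reads of the human transgene were counted for the mouse gene was not tested, so this gene does not check the labels.

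Among the members, the 3 A1 genes changed most. *Bcl2a1a* was at 1.71 and 1.73 FPKM in wild-type cells at 0 h, 11.8 and 2.43 at 36 h, and 47.2 and 22.1 at 96 h, and in HMGN1-OE cells at 1.53 and 0.685, 2.90 and 3.35, and 28.1 and 49.9 FPKM at the same times. *Bcl2a1b* went from 1.99 and 1.93 FPKM at 0 h through 12.2 and 2.0 to 59.4 and 28.9 in wild-type cells, and from 1.62 and 0.610 through 3.06 and 3.19 to 33.0 and 54.6 in HMGN1-OE cells. *Bcl2a1d* was at 1.89 and 1.73, 13.3 and 2.75, and 49.2 and 24.8 FPKM in wild-type cultures and at 1.44 and 0.583, 3.68 and 4.17, and 30.5 and 52.6 in HMGN1-OE cells. Each 96 h library lay above every 0 and 36 h library for all 3 genes, in both genotypes. The ratio of mean FPKM at 96 h to that at 0 h lay between 20.2 and 22.5 in wild-type and between 35.2 and 41.1 in HMGN1-OE cells. The log2 rise on the deposited scale was 3.62 ± 0.46, 3.84 ± 0.46 and 3.68 ± 0.46 in wild-type cells for *Bcl2a1a*, *Bcl2a1b* and *Bcl2a1d* (limma adjusted p = 8.83e-14, 4.22e-15 and 6.23e-14). In HMGN1-OE cells it was 4.22, 4.4 and 4.39 (limma adjusted p = 2.15e-18, 1.41e-19 and 2.03e-19). On the centred scale the rises lay between 5.46 and 5.69 in wild-type and between 5.53 and 5.72 in HMGN1-OE cells. Neither scale gave an interaction of genotype with time that was called for these genes.

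**Figure D1:**
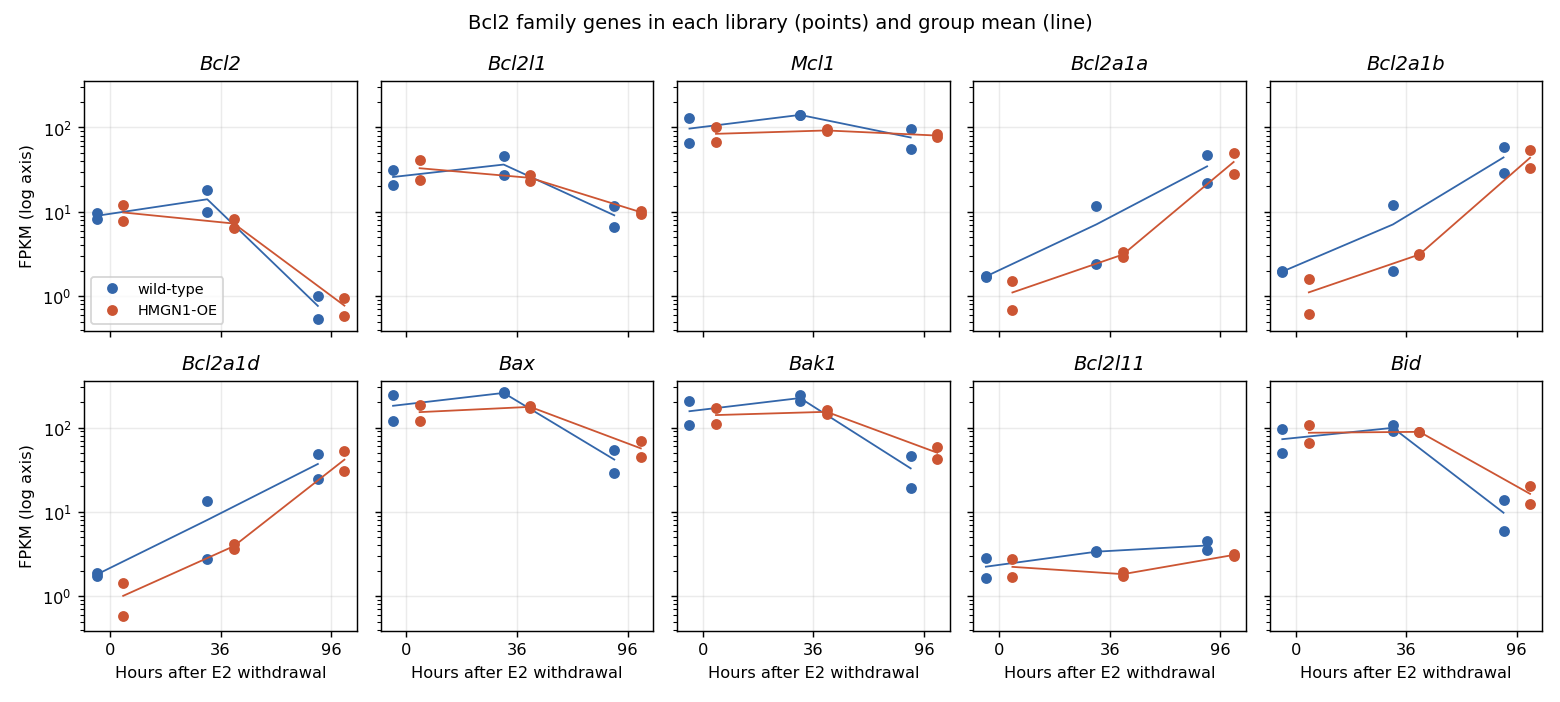
FPKM of the 10 Bcl2 family genes on a log axis against hours after E2 withdrawal, with 1 point per library (2 per group) and a line through the group means, wild-type in blue and HMGN1-OE in orange. The 3 Bcl2a1 genes reach 22.1 to 59.4 FPKM at 96 h, Bcl2 drops to between 0.532 and 1.01 FPKM, and Mcl1 stays between 56.3 and 142 FPKM in all 12 libraries.

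The A1 genes are near-identical copies on chromosome 9, and their separate values are uncertain. Their coding sequences of 519 bases, read from the GENCODE vM21 transcripts, differed at 12 positions in all, with 11 differences between *Bcl2a1a* and *Bcl2a1b* (97.9% identity), 7 between *Bcl2a1a* and *Bcl2a1d* (98.7%) and 6 between *Bcl2a1b* and *Bcl2a1d* (98.8%). Of all 50-base windows in the transcripts, 67.7%, 57.6% and 79.5% of those of *Bcl2a1a*, *Bcl2a1b* and *Bcl2a1d* occurred unchanged in another of the 3 genes, and how such reads were divided is not given in the sources used here. The first 60 coding bases hold 6 of the 12 variable positions and are shown for what a read must cover to tell the genes apart, with those 6 positions in capitals.
Bcl2a1a: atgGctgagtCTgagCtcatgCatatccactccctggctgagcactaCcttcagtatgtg
Bcl2a1b: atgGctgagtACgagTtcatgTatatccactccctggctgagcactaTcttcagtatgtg
Bcl2a1d: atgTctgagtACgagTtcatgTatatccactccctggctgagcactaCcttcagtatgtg
The summed FPKM of the 3 genes, whose size would differ if shared reads were split, counted for each copy or dropped, was 5.59 and 5.38 in wild-type and 4.59 and 1.88 in HMGN1-OE cells at 0 h. The sum at 36 h was 37.3 and 7.17 in wild-type and 9.65 and 10.7 in HMGN1-OE cells, and at 96 h 156 and 75.7 in wild-type and 91.5 and 157 in HMGN1-OE cells. On this scale the 0 h sums of the genotypes did not overlap, the 96 h sums did, and the first wild-type library at 36 h lay far above the second. A further copy, *Bcl2a1c*, was near the lowest values of the table at 0 h (0.123 to 0.395 FPKM) and at 1.36, 0.743, 1.92 and 2.16 FPKM in the 4 libraries at 96 h.

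The promoters of the A1 genes were alike as well, and they are shown because the FPKM of these genes moved together. How far reads shared among the copies tie their FPKM to one another was not tested. In the RefSeq promoter table (GRCm38.p6, from 250 bases before to 50 after the start), identity over the aligned bases was 99.2% for *Bcl2a1a* and *Bcl2a1b*, 98.0% for *Bcl2a1a* and *Bcl2a1d* and 98.8% for *Bcl2a1b* and *Bcl2a1d*. Gaps were left out, so these shares cover 256, 294 and 250 aligned bases. Each A1 promoter held GAGGAAGT, a core recognised by the Ets family factor PU.1, and TGATGCAA, a composite element of C/EBP and ATF factors. Directly before GAGGAAGT, *Bcl2a1d* lacks the bases gaggaa that *Bcl2a1a* and *Bcl2a1b* carry. The letters of both motifs were chosen after the promoters had been read. Each motif was searched by itself on both strands, and overlapping matches were not excluded. Across 32851 promoters of the same length, GAGGAAGT occurred in 3.2%, TGATGCAA in 0.895%, and both in 9 promoters (0.0274%), of which 4 belong to *Bcl2a1a*, *Bcl2a1b*, *Bcl2a1c* and *Bcl2a1d*. Of the other members, *Bak1* held GAGGAAGT, and neither run of letters was in the windows of *Bcl2*, *Bcl2l1*, *Mcl1*, *Bax*, *Bcl2l11* or *Bid*. A match is a description of the sequence, and binding was not measured. The *Bcl2a1b* promoter, chr9:89199023-89199322 on the plus strand of GRCm38.p6, is given in full with both motifs in capitals, followed by the stretch around GAGGAAGT in the other copies.
Bcl2a1b promoter: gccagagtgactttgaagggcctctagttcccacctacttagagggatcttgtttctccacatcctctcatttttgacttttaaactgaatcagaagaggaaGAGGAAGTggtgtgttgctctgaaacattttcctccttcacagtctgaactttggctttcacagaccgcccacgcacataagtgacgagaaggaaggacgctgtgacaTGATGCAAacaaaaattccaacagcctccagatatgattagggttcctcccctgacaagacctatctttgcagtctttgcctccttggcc
Bcl2a1a stretch: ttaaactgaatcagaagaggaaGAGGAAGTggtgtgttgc
Bcl2a1d stretch: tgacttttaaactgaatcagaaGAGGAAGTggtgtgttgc

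No change of *Mcl1* per cell was called over a time when most genes fell. It was at 64.7 and 129 FPKM in wild-type cells at 0 h, 140.1 and 142 at 36 h, and 95.9 and 56.3 at 96 h, and in HMGN1-OE cells at 100.5 and 67.7, 94.7 and 89.7, and 77.0 and 83.4 FPKM. The 0 h and 96 h libraries overlapped in both genotypes, and the log2 difference on the deposited scale was -0.31 ± 0.57 in wild-type (limma adjusted p = 0.606) and -0.04 ± 0.57 in HMGN1-OE cultures (0.950). Relative to the median gene of its library, *Mcl1* stood at 4.59 to 5.65 times that gene in the 8 libraries at 0 and 36 h. Later, at 96 h, it stood at 13.9 and 18.4 times in wild-type and 13.4 and 11.4 times in HMGN1-OE cells. On the centred scale it rose by 1.53 ± 0.12 in wild-type (limma adjusted p = 9.51e-06) and 1.27 ± 0.12 in HMGN1-OE cultures (3.75e-05).

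*Bcl2*, the founding anti-apoptotic member, dropped to the lowest level of all 10 genes. It was at 8.26 and 9.69 FPKM in wild-type cells at 0 h, 9.94 and 18.3 at 36 h, and 1.01 and 0.532 at 96 h. In HMGN1-OE cells it was at 11.9 and 7.77, 6.41 and 8.14, and 0.585 and 0.965 FPKM. All 4 libraries at 96 h lay below all 8 earlier libraries. Mean FPKM at 0 h was 11.7 times that at 96 h in wild-type and 12.7 times in HMGN1-OE cells. *Bcl2* fell by 2.50 ± 0.43 in wild-type (limma adjusted p = 5.72e-08) and by 2.59 ± 0.43 in HMGN1-OE cultures (4.26e-08) on the deposited scale. Relative to the typical gene (centred scale) it fell by 1.28 ± 0.28 in HMGN1-OE cells (limma adjusted p = 0.00350), while the wild-type difference of -0.66 ± 0.28 was not called (0.0606). That wild-type difference was called with a pseudocount of 0.1 FPKM, at -1.39 (limma adjusted p = 0.00222), without the filter on low values (0.0319), and without the second 0 h (-0.99, 0.0215) or the second 96 h wild-type library (-0.95, 0.0321). The interaction of genotype with time for *Bcl2* was -0.62 ± 0.40 on the centred scale and was not called (limma adjusted p = 0.545). Without a pseudocount, *Bcl2* relative to the median gene was 2.98 times as high at 0 h as at 96 h in wild-type and 4.68 times in HMGN1-OE cells.

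*Bcl2l1*, which blocks the same effectors, fell per cell in both genotypes. It was at 20.8 and 31.0 FPKM at 0 h, 27.2 and 45.5 at 36 h, and 11.6 and 6.63 at 96 h in wild-type cells, and at 41.7 and 24.1, 23.2 and 27.3, and 9.55 and 10.3 FPKM in HMGN1-OE cells. The 96 h libraries lay below all others. On the deposited scale the fall was 1.43 ± 0.51 in wild-type (limma adjusted p = 0.00781) and 1.59 ± 0.51 in HMGN1-OE cultures (0.00470), and on the centred scale the differences of 0.42 ± 0.19 and -0.27 ± 0.19 were not called. The positive wild-type value was called without the filter on low values (limma adjusted p = 0.0400), so the direction in wild-type cells depended on the scale. The wild-type call on the deposited scale was lost without the second 0 h library (adjusted p = 0.0647) or without the second 96 h library (0.0710).

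The effectors *Bax* and *Bak1* lost RNA per cell together and kept a nearly fixed proportion to each other. *Bax* was at 119 and 243 FPKM at 0 h, 253 and 260.5 at 36 h, and 54.4 and 29.0 at 96 h in wild-type cells, and at 186 and 118, 172 and 179.7, and 44.6 and 68.6 FPKM in HMGN1-OE cells. *Bak1* was at 108 and 204, 204 and 242, and 46.3 and 19.3 FPKM in wild-type cultures and at 172 and 109, 163 and 144, and 42.3 and 58.2 FPKM in HMGN1-OE cells. All 96 h libraries lay below all earlier ones for both genes. In wild-type cells *Bax* fell by 2.07 ± 0.58 (limma adjusted p = 0.000600) and *Bak1* fell by 2.27 ± 0.57 (0.000152) on the deposited scale. The wild-type call of *Bax* was lost when only the groups compared entered the fit. In HMGN1-OE cells *Bax* fell by 1.41 ± 0.58 (limma adjusted p = 0.0241) and *Bak1* fell by 1.45 ± 0.57 (0.0197), and both calls, with that of *Bcl2l1*, were lost without the first 0 h or the first 96 h HMGN1-OE library, which left 5 members called. *Bax* made up 51.3% to 60.1% of the summed FPKM of *Bax* and *Bak1* in all 12 libraries. Relative to the median gene, *Bax* lay between 7.76 and 10.4 times it in every library at every time, and *Bak1* between 6.31 and 8.68 times. The called difference of the effectors on the centred scale was a fall of *Bak1* in wild-type cells of 0.42 ± 0.11 (limma adjusted p = 0.00670), which was -0.26 with a pseudocount of 0.1 FPKM (0.0156). With only the groups compared in the fit, this fall of *Bak1* was not called. Without a pseudocount, *Bak1* relative to the median gene was 1.18 times as high at 0 h as at 96 h in wild-type cells.

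The BH3-only genes went opposite ways relative to the rest of the library. *Bid* was at 49.9 and 95.5 FPKM at 0 h, 92 and 106 at 36 h, and 13.7 and 5.87 at 96 h in wild-type cells, and at 107 and 65.8, 89.3 and 88.4, and 12.5 and 20.2 FPKM in HMGN1-OE cells. The 96 h libraries lay below all others. *Bid* fell by 2.80 ± 0.54 in wild-type (limma adjusted p = 1.15e-06) and 2.33 ± 0.54 in HMGN1-OE cultures (9.82e-05) on the deposited scale, and by 0.96 ± 0.12 and 1.02 ± 0.12 on the centred scale (0.000132 in both). *Bcl2l11* was below 5 FPKM in every library. It was at 1.64 and 2.85, 3.35 and 3.41, and 4.50 and 3.50 FPKM in wild-type cultures and at 2.78 and 1.69, 1.93 and 1.73, and 3.21 and 2.97 FPKM in HMGN1-OE cells. At 96 h both libraries lay above both 0 h libraries in each genotype, yet the differences of 0.64 ± 0.39 in wild-type and 0.36 ± 0.39 in HMGN1-OE cultures were not called on the deposited scale (limma adjusted p = 0.119 and 0.406). Centred on the median gene, *Bcl2l11* rose by 2.49 ± 0.24 in wild-type (limma adjusted p = 2.88e-05) and 1.67 ± 0.24 in HMGN1-OE cultures (0.000372). The pseudocount of 1 FPKM weighs on a gene at this level, and with 0.1 FPKM the centred rises were 2.89 and 1.92. Without any, *Bcl2l11* relative to the median gene was 8.03 times as high at 96 h as at 0 h in wild-type and 3.91 times in HMGN1-OE cells. Its share of the summed FPKM of *Bcl2l11* and *Bid* was 2.50% to 3.18% at 0 h, and at 96 h it was 24.8% and 37.3% in wild-type and 20.4% and 12.8% in HMGN1-OE cells.

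Counted over the list, 8 of the 10 members were called between 0 and 96 h on the deposited scale in each genotype, 3 higher and 5 lower. Of all tested genes, 81.5% were called in the wild-type and 67.5% in the HMGN1-OE comparison, so a call by itself sets a member apart from few genes. Calls higher at 96 h made up 4.31% and 5.08% of tested genes, and calls lower 77.2% and 62.4%. The median difference of the members was -0.87 in wild-type and -0.72 in HMGN1-OE cultures, against -1.75 and -1.28 over all tested genes. That gap came from counting the 3 near-identical A1 copies as 3 members. With their mean difference taken as 1 of 8 members, 1 was called higher and 5 lower in each genotype, and the median was -1.75 in wild-type and -1.43 in HMGN1-OE cultures. Centred values gave calls for 7 of 10 members in each genotype, 5 higher and 2 lower (3 and 2 of 8 with A1 as 1 member), where 70.3% and 63.4% of all tested genes were called, 36.5% and 30.9% higher and 33.8% and 32.5% lower. The 3 A1 genes, *Mcl1* and *Bcl2l11* were the higher ones in both genotypes. *Bid* was lower in both, with *Bak1* in wild-type and *Bcl2* in HMGN1-OE cells. Libraries of 0 and 96 h did not overlap for 9 of 10 members on the deposited scale in each genotype, all but *Mcl1*, with 4 above and 5 below at 96 h. Of all tested genes, 4.84% lay above and 80.9% below without overlap in wild-type cells, and 7.95% and 82.8% did so in HMGN1-OE cells. Markers of several cell types moved over the same time. The summed FPKM of 6 progenitor and primary granule markers ran from 5373 to 21697 before 96 h and from 118 to 2302 at 96 h, and that of the 3 eosinophil markers in the table was 2124 and 983 in wild-type and 200.4 and 497 in HMGN1-OE cells at 96 h, against 2.82 to 52.5 before. *Ly6g*, *Adgre1* and *Siglecf* were not matched by symbol, and the part of these cells in the changes of the members was not tested.

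**Figure D2:**
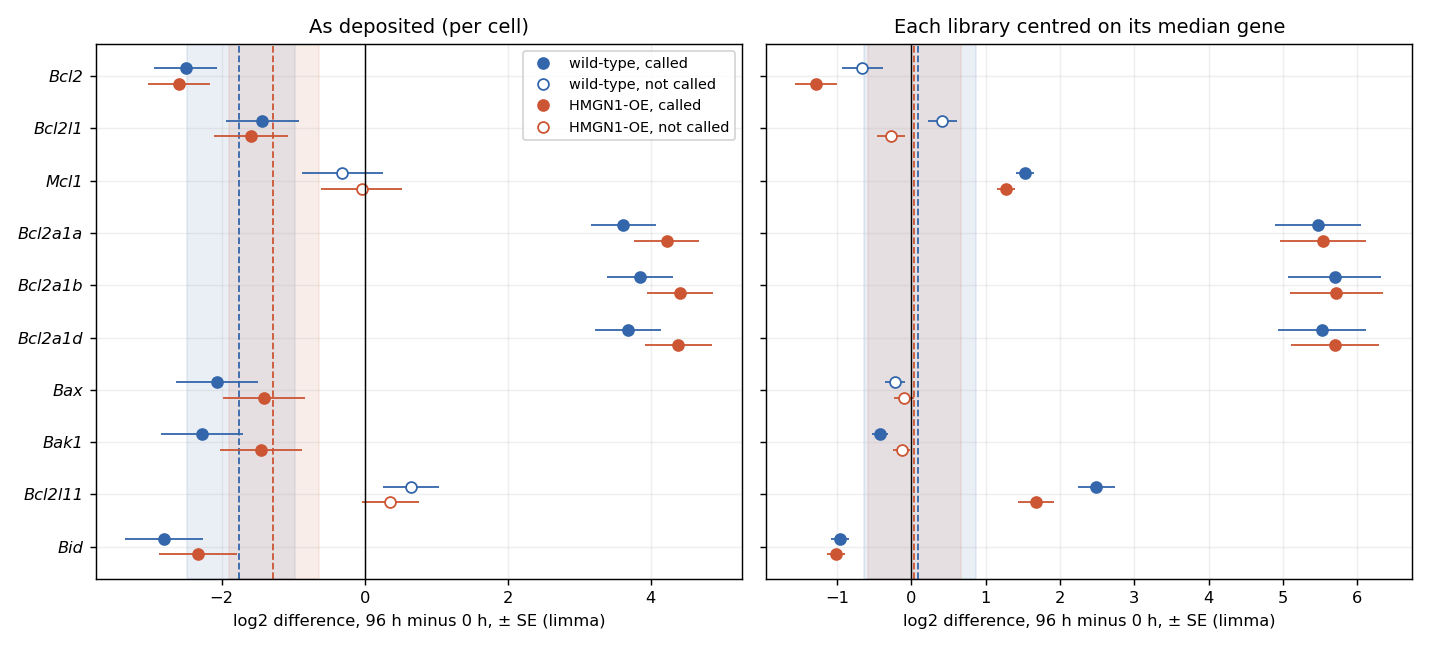
log2 difference between 96 h and 0 h with its standard error (limma) for each member in wild-type (blue) and HMGN1-OE cells (orange), on the deposited scale (left) and the centred scale (right); filled points were called. Dashed lines mark the median of the 11516 tested genes and shaded bands their quartiles, so that Bax, Bak1 and Bcl2l1 are seen within or near the bands, and the Bcl2a1 genes, Mcl1 and Bcl2l11 to the right of them on both scales.

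The make-up of the anti-apoptotic transcripts at 96 h differed from that at 0 h in every library. *Mcl1* held 63.3% to 73.7% of the summed FPKM of the 6 anti-apoptotic genes at 0 h and 33.1% to 43.1% at 96 h. The share of the 3 A1 genes, summed, was 1.85% to 5.63% at 0 h and 51.2% to 62.4% at 96 h. Which gene held most at 96 h depended on how the near-identical A1 copies were counted. With their mean counted once, A1 held 0.625% to 1.95% at 0 h and 25.9% to 35.6% at 96 h, and *Mcl1* held 64.6% to 75.3% at 0 h and still most, 56.7% to 65.5%, at 96 h. With the copies summed, *Bcl2l1* went from 17.7% to 26.3% at 0 h to 4.08% to 5.34% at 96 h, and *Bcl2* from 5.52% to 8.32% to 0.327% to 0.383%. At 36 h the A1 share was 17.4% and 3.37% in wild-type and 7.20% and 7.88% in HMGN1-OE cells.

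**Figure D3:**
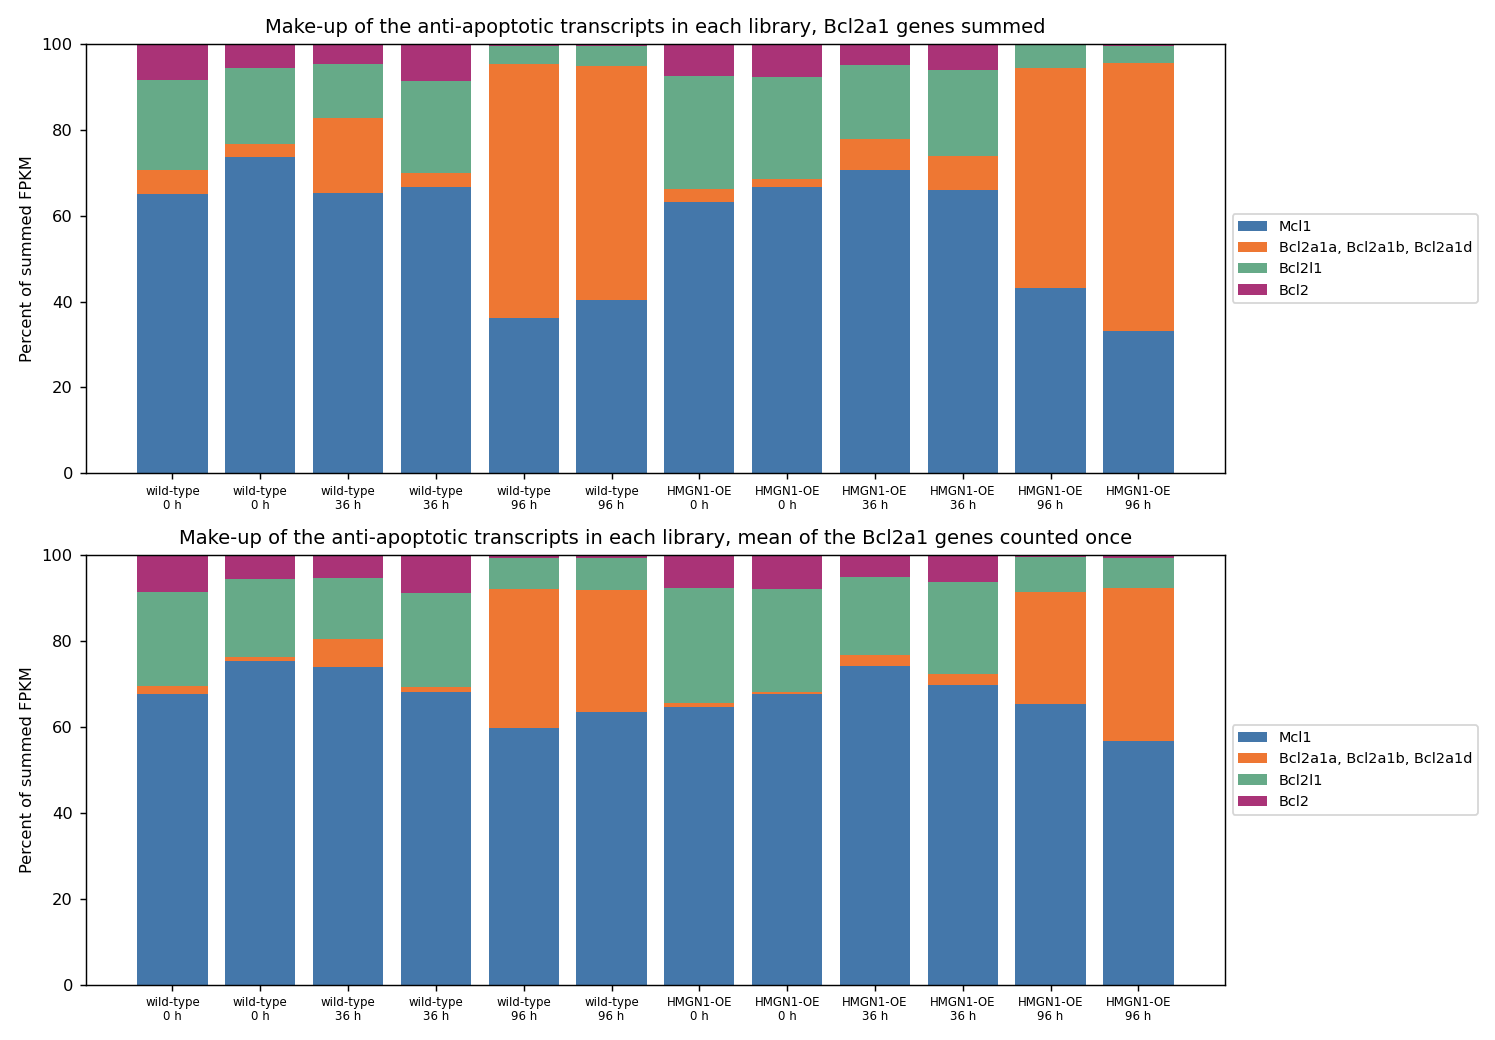
Percent of the summed FPKM of the 6 anti-apoptotic genes taken by Mcl1, the 3 Bcl2a1 genes together, Bcl2l1 and Bcl2, as stacked bars, 1 bar per library, with the near-identical Bcl2a1 genes summed (top) or their mean counted once (bottom). At 96 h the Bcl2a1 genes hold at least 51.2% in every library when summed, and 25.9% to 35.6%, less than Mcl1 at 56.7% to 65.5%, when counted once.

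Ratios between members were taken within each library. The loess step on the ERCC RNAs varies with level and is not 1 factor per library, and the most frequent low value of a library lay between 0.0967 and 0.105 FPKM while its median tested gene ran from 3.06 to 30.3 FPKM. A ratio of genes at unlike levels, such as A1 to *Bax* at 0 h, can therefore depend on that step, and how far it does was not tested. The summed FPKM of the 6 anti-apoptotic genes over that of *Bax* and *Bak1* lay between 0.393 and 0.469 in all 8 libraries at 0 and 36 h. The 96 h values were 2.62 and 2.88 in wild-type and 2.06 and 1.98 in HMGN1-OE cells, above every earlier library in both genotypes. Over *Bcl2l11* and *Bid*, the ratio was 1.93 and 1.78 in wild-type and 1.44 and 1.5 in HMGN1-OE cells at 0 h. The 36 h values were 2.25 and 1.94 in wild-type and 1.47 and 1.51 in HMGN1-OE cells. It reached 14.5 and 14.9 in wild-type and 11.4 and 10.8 in HMGN1-OE cells at 96 h, and at each of the 3 times the HMGN1-OE libraries were below the wild-type ones, with no test of a score over the members. Some cell type markers also differed between genotypes on the deposited scale (limma). In HMGN1-OE cells 2 of 6 progenitor and primary granule markers were called lower at 0 h and 3 higher at 96 h. Of 9 maturation markers, 4 were called lower at 36 h. No marker was called between genotypes on the centred scale, and the part of such cells in the ratio was not tested. The size of the ratio at 96 h depends on how the A1 genes are counted. Without them the ratio to *Bax* and *Bak1* at 96 h was 1.08 and 1.31 in wild-type and 1.0 and 0.746 in HMGN1-OE cells, and with their mean counted as 1 gene it was 1.59 and 1.84, and 1.36 and 1.16. Each of these still lay above the same ratio in every earlier library. These are sums of transcripts and say nothing of the binding strength of the proteins.

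**Figure D4:**
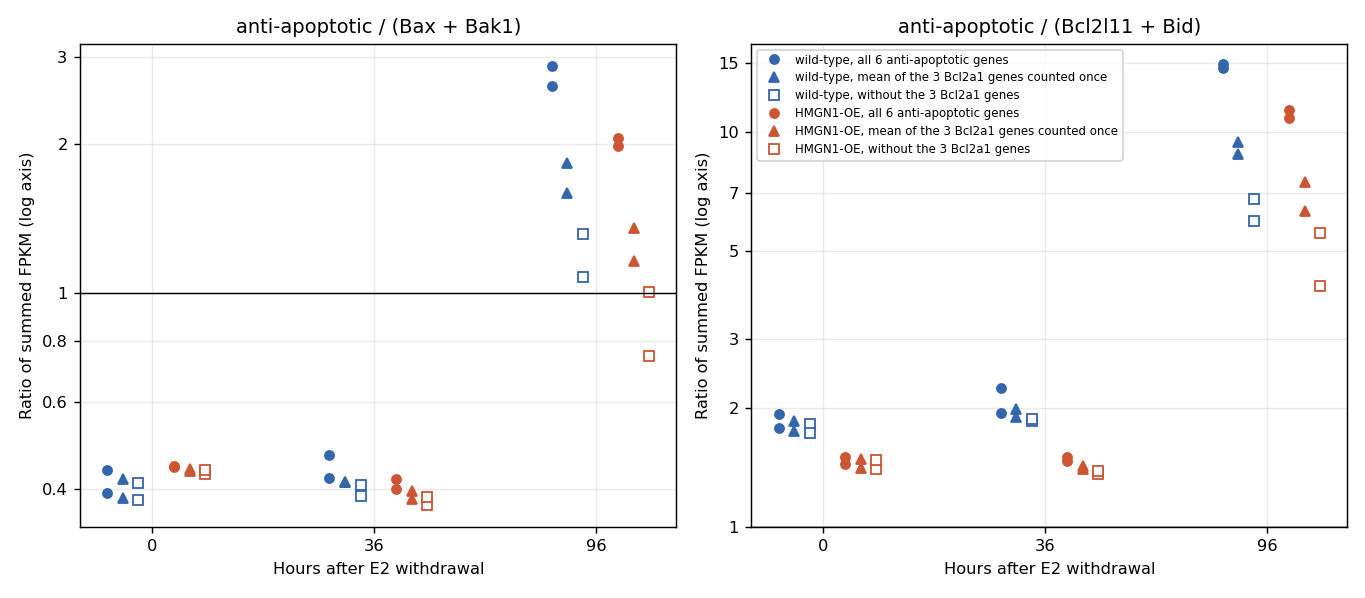
Summed FPKM of the anti-apoptotic genes over that of Bax and Bak1 (left) and of Bcl2l11 and Bid (right), on log axes with a line at 1, against hours after E2 withdrawal, 1 symbol per library, wild-type in blue and HMGN1-OE in orange. Circles take all 6 anti-apoptotic genes, triangles count the mean of the 3 Bcl2a1 genes once and open squares leave them out; circles on the left lie between 0.393 and 0.469 at 0 and 36 h and between 1.98 and 2.88 at 96 h.

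By 36 h no member was called in either genotype on either scale (limma). On the deposited scale 0.617% of all tested genes were called in wild-type and 1.8% in HMGN1-OE cultures, and on the centred scale 0.00868% and 0.13%. The members with an unadjusted p under 0.05 were the 3 A1 genes in both genotypes on the deposited scale and none on the centred scale. Of all tested genes, 3.28% in wild-type and 5.02% in HMGN1-OE cultures had such a p on the deposited scale, and 3.06% and 14.8% on the centred scale. Limma without the trend and a model without moderation also called no member. A pseudocount of 0.1 FPKM gave a call of *Bcl2a1d* in HMGN1-OE cells on the deposited scale, at 1.97 (limma adjusted p = 0.0237). The differences of *Bcl2a1a*, *Bcl2a1b* and *Bcl2a1d* between 36 and 0 h were 1.29, 1.09 and 1.38 in wild-type and 1.0, 1.01 and 1.32 in HMGN1-OE cells on the deposited scale. Both 36 h libraries lay above both 0 h libraries for these genes in each genotype on that scale, which was so for 25.7% of all genes in wild-type and 14.3% in HMGN1-OE cultures. In wild-type cells it was also so for *Bcl2*, *Mcl1*, *Bax*, *Bak1* and *Bcl2l11*. For *Bcl2a1b* in wild-type cells it rested on 1.996 FPKM at 36 h against 1.991 at 0 h. On the centred scale the wild-type libraries overlapped for all 3 A1 genes. In wild-type cells the first 36 h library decided the size of the difference. Without the second one, the 3 genes were called on both scales, at 2.16 to 2.35 on the deposited scale (limma adjusted p from 0.00691 to 0.0207) and 1.82 to 2.01 on the centred scale (0.0312 to 0.0345), with the remaining library assumed to vary like the others. That first library also had the higher summed levels of 5 basophil and mast cell markers, 2671 against 837 FPKM, and of 9 maturation markers, 2064 against 1023 FPKM, and the part of such cells in its A1 level was not tested. In HMGN1-OE cells the 3 genes were called when only the 4 libraries compared entered the fit, at 1.0, 1.01 and 1.32 on the deposited scale (limma adjusted p = 0.00151, 0.00123 and 7.13e-06). On the centred scale that fit called them at 0.97, 0.98 and 1.29 (limma adjusted p = 0.0375, 0.0342 and 0.0173).

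Between HMGN1-OE and wild-type cells no member was called at 0, 36 or 96 h on either scale (limma), and none had a called interaction of genotype with time. Of all tested genes, 1.36%, 1.26% and 0.669% were called at the 3 times on the deposited scale and 0.104%, 0.0521% and 0.0608% on the centred scale. For the interaction at 36 and 96 h the shares were 0.504% and 0.677% on the deposited scale and 0.0174% and 0.0347% on the centred scale. Limma without the trend and the model without moderation called no member in these comparisons either. No member had an unadjusted p under 0.05 in any of them on the deposited scale. With centred values 2 members did at 0 h (*Bcl2l1* and *Bid*), 1 at 36 h (*Bid*) and 4 at 96 h (*Mcl1*, *Bak1*, *Bcl2l11* and *Bid*), and 0 and 2 (*Bcl2l1* and *Bcl2l11*) did for the interaction at 36 and 96 h. Of all tested genes, 5.64%, 3.85% and 17.9% passed that unadjusted threshold at the 3 times on the centred scale, and 1.89% and 10.6% did for the interaction. The 3 A1 genes were below the wild-type libraries in both HMGN1-OE libraries at 0 h on the deposited scale, which was so for 4.67% of all genes, and overlapped them on the centred scale. Relative to the median gene *Bcl2a1a*, for one, was at 0.121 and 0.0651 times it in wild-type and 0.0720 and 0.0472 times in HMGN1-OE cells. At 36 h the HMGN1-OE libraries were without overlap below the wild-type ones for *Bcl2*, *Mcl1*, *Bax*, *Bak1*, *Bcl2l11* and *Bid* on the deposited scale, as for 84.4% of all genes, whose median difference was -0.54. *Bid* was the member that lay higher in both HMGN1-OE libraries at every time on the centred scale, where differences were 0.41 ± 0.12 at 0 h, 0.43 ± 0.12 at 36 h and 0.35 ± 0.12 at 96 h (limma adjusted p = 0.618, 0.912 and 0.228). At each of these times taken alone, 19.8%, 26% and 21.7% of all genes lay higher without overlap. The share that did so at all 3 times was not counted. Relative to the median gene *Bid* was at 3.54 and 3.60 times it in wild-type and 5.05 and 4.53 times in HMGN1-OE cells at 0 h, and at 1.98 and 1.92 against 2.18 and 2.77 times at 96 h. At 96 h *Bcl2l11* was at 0.650 and 1.14 times the median gene in wild-type and 0.559 and 0.406 times in HMGN1-OE cells, a centred difference of -0.68 ± 0.24 that was not called (limma adjusted p = 0.233). Centred values at 96 h also lay below wild-type in both HMGN1-OE libraries for *Bcl2* (-0.39), *Bcl2l1* (-0.25), *Mcl1* (-0.28) and *Bcl2a1b* (-0.37). *Bak1* (0.31) lay above like *Bid*, none of these was called, and the share of all genes lying below was not counted. All 6 anti-apoptotic members had a negative centred difference at 96 h, and the median over all tested genes was -0.05. Without the first wild-type library at 96 h, which leaves that group a single library, the centred differences were -1.02 for *Bcl2l11* and 0.44 for *Bak1*.

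The other genes of the pathway, 43 in 6 lists, were all in the table and 39 passed the filter on low values, with *Bcl2l10*, *Bok*, *Bik* and *Hrk* below it. On the deposited scale 2 rose (*Bmf* and *Bcl2a1c*), 29 fell and 8 were not called in wild-type cells between 0 and 96 h, and the same 2 rose, 18 fell and 19 were not called in HMGN1-OE cells. On the centred scale 19 rose and 11 fell in wild-type and 19 rose and 10 fell in HMGN1-OE cells, with a median difference of 0.20 and 0.40. *Bmf*, a BH3-only gene, and *Bcl2a1c* were below 1 FPKM in all 0 h libraries and passed the filter through 96 h libraries, so the filter favoured a rise. By the fixed rule they are named as the largest called rises, at 2.57 ± 0.48 and 2.54 ± 0.39 in wild-type and 2.01 ± 0.48 and 2.74 ± 0.39 in HMGN1-OE cells on the centred scale. Deposited values gave rises of 0.73 and 0.70 in wild-type and 0.70 and 1.42 in HMGN1-OE cells. *Bmf* was at 0.177 to 0.718 FPKM at 0 h and at 0.800 to 1.63 FPKM at 96 h, values near or under the pseudocount of 1 FPKM, which compresses the change of such a gene more than it does that of the median gene. The largest falls were those of *Cycs*, the cytochrome c released through Bax and Bak1 pores, and *Diablo*, a released protein that displaces inhibitors of apoptosis from caspases. *Cycs* was at 91.6 and 191 FPKM at 0 h and 19.9 and 7.15 at 96 h in wild-type cells, and at 155 and 119, and 18.7 and 28.8 FPKM in HMGN1-OE cells. *Cycs* fell by 1.51 ± 0.15 in wild-type and 1.19 ± 0.15 in HMGN1-OE cultures, and *Diablo* fell by 1.49 ± 0.17 and by 1.81 ± 0.17, both on the centred scale.

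By list, the 5 tested multi-domain relatives of Bcl2 had 4 higher and 1 lower call in each genotype on the centred scale, *Bcl2a1c* and *Bcl2l14*, both below 1 FPKM in all 0 h libraries, among the higher ones. Of 4 tested BH3-only genes, 2 rose in wild-type and 3 in HMGN1-OE cultures, *Bmf* among them, and none fell. Without the 3 genes that were below 1 FPKM in all 0 h libraries, 2 of 3 multi-domain relatives rose in each genotype, as did 1 of 3 BH3-only genes in wild-type and 2 of 3 in HMGN1-OE cultures, and over all 6 lists 16 of 36 rose in each. The counts stand beside 36.5% of all tested genes called higher and 33.8% lower in wild-type and 30.9% and 32.5% in HMGN1-OE cells. Among 9 genes of the apoptosome and caspases, 4 rose in each genotype, and 3 fell in wild-type and 2 in HMGN1-OE cultures. Inhibitors of apoptosis and their antagonists had 3 rises and 2 falls of 6 in each genotype, and the 8 genes of the death receptor pathway had 4 rises and no fall. Of 7 genes that act on the members, 5 fell in each genotype, while 2 rose in wild-type and 1 in HMGN1-OE cultures. On the deposited scale no gene of the caspase, inhibitor, death receptor or regulator lists was called higher at 96 h in either genotype, where 4.31% and 5.08% of all tested genes were.

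**Figure D5:**
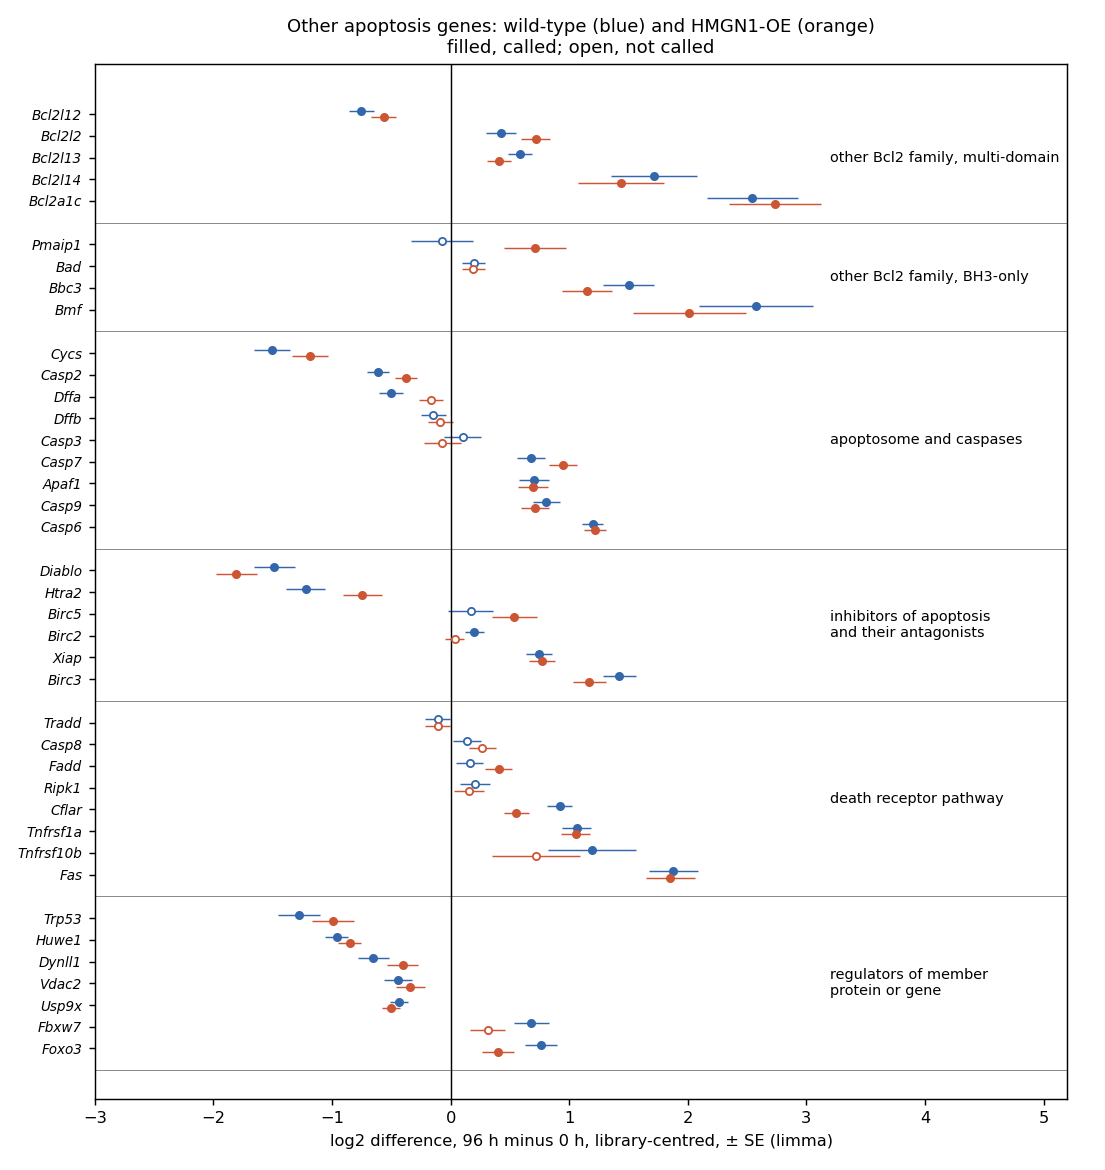
log2 difference between 96 h and 0 h on the centred scale with its standard error (limma) for 39 other apoptosis genes in 6 lists, wild-type in blue and HMGN1-OE in orange, filled where called. In each genotype Cycs and Diablo lie farthest left, at -1.19 to -1.81, and Bmf and Bcl2a1c farthest right, at 2.01 to 2.74, and both reached the 1 FPKM filter through 96 h libraries alone.

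The members' patterns over the 12 libraries can be set side by side. The Pearson correlation of *Mcl1* with *Bcl2a1a* was 0.97 and with *Bcl2l11* 0.98, and that of *Bcl2* with *Mcl1* was -0.81, on the centred scale. *Bcl2l1* correlated with *Bcl2* at 0.15 and with *Mcl1* at 0.31. Of the genes with a mean of at least 5 FPKM, of which 8905 were searched, those most like *Bcl2* were *Samd14*, *Arhgap6* and *Ctla2a* (r = 0.98, 0.97 and 0.97). Those most like *Mcl1* were *Nadk*, *Zcchc6* and *Adipor1* (r = 0.999, 0.999 and 0.998), and those most like *Bcl2l11*, with 8906 searched, were *Niacr1*, *Dclre1c* and *Zfp516* (r = 0.996, 0.995 and 0.995). These correlations are descriptions over libraries that fall into a 96 h group and the rest.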

How the data were processed

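RNA was sequenced from wild-type and HMGN1-OE progenitors at 0, 36 and 96 h, 2 libraries in each of 6 groups. The authors added ERCC RNAs to RNA from a fixed number of cells, aligned the reads and deposited FPKM normalized by loess on the ERCC RNAs. The paper names Bowtie, and the submitters' processing notes list HISAT, Cufflinks 2.0.0 and the build mm9. Read counts were not recovered and depth is unknown, so no counting error is given.

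A gene was tested if it reached 1 FPKM in 2 or more of 12 libraries (11516 of 23309 genes, 92 ERCC rows apart). Tests were made on log2(FPKM + 1), which understates changes of low genes, as deposited and after subtracting each library's median. Limma 3.58.1 in R 4.3.3 (trend, two-sided, Benjamini-Hochberg, 0.05) fitted 6 group means. Prior degrees of freedom were infinite on the deposited scale, so a gene's own spread did not enter its p, and 2.87 on the centred scale. The p-values measure only the spread between these samples. A figure legend of the paper calls the RNA-seq samples biological duplicates, and the labels do not give the mice or separate cultures behind them. Library columns carry digits other than the samples' replicate numbers and are called first and second in file order.

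The members and gene lists were chosen with earlier results of these data known. Named genes were all members, the 2 largest called rises and falls of the other lists, the 3 genes most like *Bcl2*, *Mcl1* and *Bcl2l11*, and *Hmgn1*. Alternatives were a pseudocount of 0.1 FPKM, no filter, no trend, no moderation, only the groups compared, each library left out, and the A1 genes left out of sums or, chosen after the values were seen, counted once there and in the median of the members. The fit was tested on simulated data with independent noise and no shift of whole libraries, so that test does not cover the shifts between the libraries of a group. Sequences came from RefSeq (GRCm38.p6) and GENCODE vM21, and figures were drawn with matplotlib 3.10.9.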

Additional observations from a re-analysis of the deposited data

How the results depend on the processing

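No paired analysis was possible because the table's columns carry no replicate number shared with the sample labels. On a given scale, no difference of a called member changed sign under any alternative. The number of members called between 36 and 0 h in HMGN1-OE cells was 1 (*Bcl2a1d*) with a pseudocount of 0.1 FPKM and 3 with only the groups compared on the deposited scale, and 3 with only the groups compared on the centred scale, against 0. With each library left out in turn, the number called ranged from 0 to 3 between 36 and 0 h in wild-type cells on both scales, from 7 to 8 between 96 and 0 h in wild-type cells, from 5 to 8 in HMGN1-OE cells on the deposited scale, and from 0 to 2 between genotypes at 96 h on the centred scale. With only the groups compared, *Bcl2l1* (adjusted p = 0.165) and *Bax* (0.0718) in wild-type cells on the deposited scale and *Bak1* (0.0617) on the centred scale were not called. Calls were also gained in wild-type cells between 96 and 0 h. On the centred scale *Bcl2* was called lower with a pseudocount of 0.1 FPKM and without the filter, and *Bcl2l1* higher without the filter (0.42, adjusted p = 0.0400), against its fall of 1.43 on the deposited scale. *Bcl2l11* was called higher on the deposited scale without moderation (0.0433) or without the second 0 h library (0.0450). In HMGN1-OE cells *Bax* (0.0502) and *Bak1* (0.0564) were not called without the filter, nor *Bak1* (0.0501) without moderation.

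With the A1 genes taken as 1 member (chosen after seeing the data), the median difference of the members between 96 and 0 h on the centred scale went from 0.97 to 0.10 in wild-type cells and from 0.59 to -0.11, a change of sign, in HMGN1-OE cells.

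The log2 ratio of anti-apoptotic genes to *Bax* and *Bak1* depended on the A1 genes. Left out of the sum, they took its mean at 96 h from 1.46 to 0.25 in wild-type cells and from 1.02 to -0.21, a change of sign, in HMGN1-OE cells. Counted once, they gave 0.77 and 0.33. Left out, the ratio was -1.33 in wild-type cells at 36 h, and -1.20 and -1.40 in HMGN1-OE cells at 0 and 36 h, where counting once gave -1.19 and -1.36. For *Bcl2l11* and *Bid* the log2 ratio left out was 0.90 in wild-type cells at 36 h, 2.67 at 96 h, and 0.46 and 2.25 in HMGN1-OE cells at 36 and 96 h. Counted once it was 3.19 in wild-type cells at 96 h and 0.50 and 2.78 in HMGN1-OE cells at 36 and 96 h.

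With 2 libraries per group and no read counts, differences of the size of the standard errors given were not detectable, and the split of reads among the A1 genes is unknown.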
